A study of Mus musculus with 12 samples.

Results

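The genes described here carry the symbols of mitochondrial ribosomal proteins. They were chosen by name, as every gene listed in both deposited tables whose symbol is Mrpl or Mrps followed by a number and at most 1 letter. This gave 76 genes of the 16618 listed in both tables, 47 Mrpl and 29 Mrps, and all 76 passed the filter on low values in each table (3 or more of the 6 libraries at a signal of 1 or above). Of the 78 annotated symbols that match the rule, Mrpl52 and Mrpl53 were not analysed here. Messenger RNA was sequenced from 12 libraries of primary stromal vascular fraction (SVF), the non-adipocyte cells of white adipose tissue (WAT), from C57BL/6 mice aged 6 weeks. TKO cells were triple knockouts, null for the 2 miR-26a genes (miR-26a-1-/- and miR-26a-2-/-) and also for the b gene (miR-26b-/-), and WT cells were wild type. Cells of all 4 groups were confluent. In the second pair, Dox cells carried M2rtTA;eGFP.miR-26a, a doxycycline-responsive activator with an inducible miR-26a transgene, and received 1 mg/ml doxycycline for 4 days, the dose as the labels give it. CTL cells carried the same transgenes without doxycycline. Each group had 3 libraries. The labels do not say whether replicates came from separate animals or cultures, so p-values measure the spread between these libraries, which may be technical. There was no group with doxycycline but without the transgene, so the drug and the induced microRNA cannot be told apart.

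The mitochondrial ribosome translates the few proteins encoded in mitochondrial DNA, all of them core subunits of oxidative phosphorylation. Its RNAs are transcribed in the mitochondrion, whereas every one of its proteins is encoded in the nucleus, made in the cytosol and imported. The small subunit decodes the messenger RNA and the large subunit joins the amino acids, and many proteins of both have no bacterial counterpart. Tetracyclines such as doxycycline bind bacterial ribosomes and also inhibit mitochondrial translation. MicroRNAs such as miR-26 repress messenger RNAs through base pairing between the seed and the 3′ untranslated region (UTR).

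The miR-26 sequences are shown because they define the match that was looked for in the members. The 2 mature forms from the 5′ arm are given from RefSeq (GRCm38.p6), with the seed (bases 2 to 8) in capitals, and they share that seed.
mmu-miR-26a-5p: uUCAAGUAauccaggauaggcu
mmu-miR-26b-5p: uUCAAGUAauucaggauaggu
The 7-base match to this seed, TACTTGA, occurred in the 3′ UTR of 5 of the 76 members (6.58%), against 11.6% of the protein-coding genes tested. The member 3′ UTRs were shorter, with a median of 361.5 bases against 1200 bases. The matching sites are shown on the GRCm38 transcript strand, with the match in capitals, including the A opposite the first base where it is present.
Mrpl19 (chr6:81960139-81960146, minus strand, exon 5 of 5): gctacagagtcTACTTGAAtagtttt
Mrpl48 (chr7:100547302-100547309, minus strand, exon 8 of 8): gctgagcatggTACTTGAAttcagtt
Mrpl51 (chr6:125195927-125195933, plus strand, exon 3 of 3): ttgtcttactgTACTTGAtatgccat
Mrps17 (chr5:129719721-129719727, plus strand, exon 4 of 4): aacttaaatttTACTTGAccactact
Mrps17 (chr5:129721168-129721174, plus strand, exon 4 of 4): cgtctataagaTACTTGAccaattga
Mrps30 (chr13:118379207-118379213, minus strand, exon 5 of 5): cacacatttctTACTTGAcattttat

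Signal is the deposited value, the reads of a gene scaled by 1 factor per library. The recovered depth was 71455171 to 83461531 reads in TKO libraries and 54978109 to 61307152 in WT libraries, with 19301969 to 25785439 in Dox libraries and 20182665 to 24122542 in CTL libraries. Markers of stromal progenitors (8 of 8 listed) had a summed signal of 13979 to 14927 in TKO libraries and 13296 to 14749 in WT libraries. The median signal of these 8 markers was 513 to 584 in TKO libraries and 756 to 783 in WT libraries. Of the 8, 2 passed as lower (Thy1 at -0.86 ± 0.15 and Pdgfrb at -0.47 ± 0.12) and none as higher. Of all genes tested, 22.7% were lower and 23.2% higher, so the lower share of these markers was near the background. Markers of fat cells (4 of 5 listed) summed to 115, 112 and 28.9 in TKO libraries 1, 2 and 3 and to 28.1 to 30.9 in WT libraries. Markers of macrophages and leukocytes (6 of 6 listed) summed to 43.7 to 253 in TKO libraries and 32.2 to 53.7 in WT libraries. TKO library 3, whose fat-cell marker sum lay within the WT range, had a summed member signal of 1793, above all 3 WT libraries. It was also above all 3 WT libraries in the summed signal of endothelial (128), epithelial (76.6) and mesothelial (10.1) markers. The highest WT sums of these sets were 99.9, 35.4 and 7.48. Its sum of Schwann cell markers (9.51) lay within the WT range. In the other table the stromal sum was 16425 to 21152 in Dox libraries and 17146 to 20953 in CTL libraries. The part of these markers in the results was not tested.

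The WT libraries stood apart from the other 9 in the summed signal of the members and of the mitochondrially encoded RNAs. Members summed to 1802, 1918 and 1793 in TKO libraries 1, 2 and 3, against 1520, 1547 and 1567 in WT libraries 1, 2 and 3. The same sum was 1837, 1961 and 1842 in Dox libraries 1, 2 and 3, against 1793, 1761 and 1788 in CTL libraries 1, 2 and 3. As a share of all signal in a library, the 15 mitochondrially encoded mRNAs and rRNAs held 1.52% to 1.64% in TKO, 4.53% to 5.10% in WT, 1.14% to 1.80% in Dox and 1.62% to 1.74% in CTL. The untreated transgenic CTL cells, with their own miR-26 genes not stated to be altered, were thus nearer to TKO than to WT in both sums. Of the 76 members, 43 had all 3 CTL libraries above all 3 WT libraries (28.8% of genes tested in TKO against WT and listed in both tables) and 14 had all 3 below (29.7%). The tables were normalized apart and the cells differ in genotype, so these levels were not tested, and every value of TKO against WT below shares the same WT libraries.

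**Figure D1:**
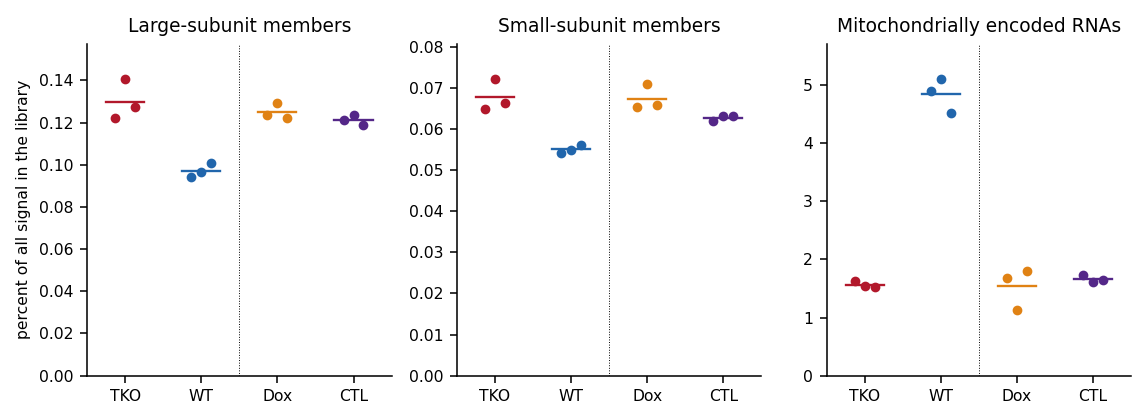
Share of all signal in each library (percent, axis from 0) taken by the 47 Mrpl genes, the 29 Mrps genes and the mitochondrially encoded RNAs, with a point per library, a bar at the group mean and a dotted line between the separately normalized tables. The 3 WT libraries are lowest for the Mrpl and for the Mrps genes and highest for the mitochondrially encoded RNAs, while TKO, Dox and CTL libraries lie close together. The subunit titles of the panels follow the gene symbols.

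In TKO cells, 44 of the 76 members were higher than in WT cells and 9 were lower at an adjusted p under 0.05, and 23 did not pass. Of all 12649 genes tested, 23.2% were higher and 22.7% were lower, so the higher share among members exceeded the background and the lower share did not. The median log2 fold change was 0.37 over the members and -0.00 over all genes tested, and the members ran between -0.95 and 1.38. Among Mrpl genes 29 of 47 were higher and 5 lower, with a median of 0.38. Among Mrps genes 15 of 29 were higher and 4 lower, with a median of 0.22. The TKO and WT groups did not overlap, with TKO above, for 48 members (29.4% of genes tested) and with TKO below for 12 (29.4%). The test was limma with a trend on the log2 of signal plus 1, adjusted by Benjamini and Hochberg over all genes tested. The authors' deposited table has 38 members higher and 7 lower at a false discovery rate under 0.05, where 13.6% and 11.2% of all its genes are called.

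The spread of the fold changes among the members was as wide as in the transcriptome. Its SD was 0.49 across the 76 members and 0.49 across all genes tested, against a median SE of 0.08 for a member. Members of this set therefore differed from each other by more than their errors.

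**Figure D2:**
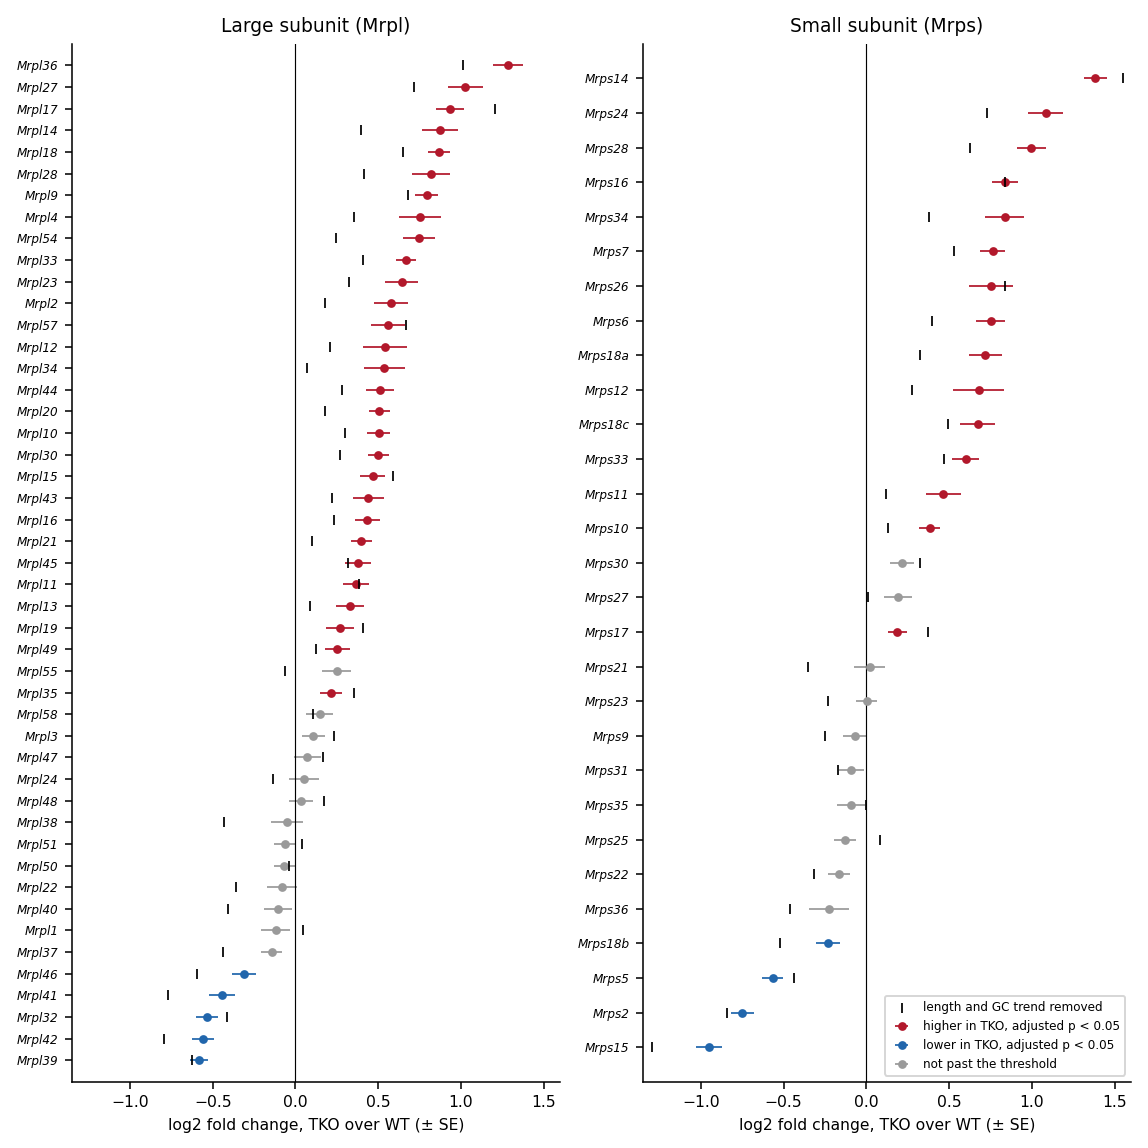
Log2 fold change of each member in TKO over WT (limma, points with SE bars), Mrpl genes left and Mrps genes right, coloured by call at an adjusted p under 0.05, with black ticks for the fit after removal of the transcript length and GC trend. Mrps14 and Mrpl36 lead, Mrps15 is lowest, and most ticks lie left of their points.

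The strongest rise was that of Mrps14 (chromosome 1, 160195215 to 160202170, plus strand), the counterpart of bacterial small-subunit protein S14. Its signal was 31.1, 32.2 and 28.9 in TKO libraries, against 11.1, 11.1 and 11.2 in WT libraries. The groups lay far apart, with a log2 fold change of 1.38 ± 0.07 (SE, adjusted p = 1.55e-04 by limma). In Dox and CTL cells the gene had 21.7, 22.1 and 24.6 against 18.5, 20.6 and 22.7, between the TKO and WT levels.

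Mrpl36 (chromosome 13, 73328513 to 73332178), the large-subunit counterpart of bacterial L36, followed. It had 25.002, 26.2 and 24.1 in TKO libraries, against 8.88, 9.43 and 10.9 in WT libraries. The fold change was 1.29 ± 0.09 (adjusted p = 2.80e-04 by limma), with no overlap between groups. Ndufs6, a complex I subunit gene whose start lies head to head with the outer bound of the Mrpl36 gene model, changed by -0.06 (adjusted p = 0.570 by limma). The RefSeq start of Mrpl36, used for the promoter shown further on, lies downstream of that bound.

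Mrps24, the counterpart of bacterial S3 at the messenger RNA entry site, had 13.7, 14.5 and 12.6 in TKO libraries, against 5.45, 5.47 and 6.76 in WT libraries. It rose by 1.08 ± 0.11 (adjusted p = 6.10e-04 by limma), and 15.4% of its exonic bases overlap Urgcp on the same strand. Mrpl27, a large-subunit protein near the peptidyl transferase centre in bacteria, had 17.5, 19.4 and 15.9 in TKO libraries, against 7.22, 8.499 and 8.66 in WT libraries, a fold change of 1.03 ± 0.11. Of its 50-base stretches, 32.4% also occur in other genes, so its reads may be split between them.

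Mrps28, the small-subunit counterpart of bacterial S1, had 15.2, 14.4 and 13.6 in TKO libraries, against 6.496, 7.28 and 6.36 in WT libraries. Mrpl17, the counterpart of bacterial L17, had 49.3, 53.2 and 46.5 in TKO libraries, against 23.3, 26.2 and 27.2 in WT libraries. These rises were 1.00 ± 0.09 and 0.93 ± 0.09 on the log2 scale. Mrpl14, a large-subunit protein at the interface between subunits, had 11.4, 13.5 and 10.3 in TKO libraries, against 5.61, 5.98 and 6.18 in WT libraries. Mrpl18, whose bacterial counterpart binds 5S rRNA, had 32.9, 35.2 and 32.4 in TKO libraries, against 17.2, 18.1 and 18.4 in WT libraries. Both rose by 0.87, with SEs of 0.11 for Mrpl14 and 0.07 for Mrpl18. After removal of a trend on transcript length and GC content, described further on, the rises were 0.39 for Mrpl14, 0.65 for Mrpl18 and 0.62 for Mrps28, and all 3 still passed. In each of these 8 genes every TKO library was above every WT library, with adjusted p between 1.55e-04 and 0.00139 by limma.

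The genes that fell included some of the members most abundant in WT cells, the group in which they were higher. Per kilobase of transcript, the highest WT levels among the members were those of Mrpl42 (70.6 ± 2.8), Mrps15 (50.5 ± 3.2) and Mrpl33 (42.7 ± 1.4; signal per kilobase, SD, n = 3 each), against a median of 10.9 over the members. In CTL cells the ranks of Mrpl42, Mrps15 and Mrpl33 among the members were 4, 9 and 1 by this measure. Per kilobase of coding sequence their CTL ranks were 8, 37 and 1. Mrps15 (chromosome 4, 126046925 to 126055532), the counterpart of bacterial S15, fell most. It had 22.3, 24.7 and 25.02 in TKO libraries, against 49.4, 48.7 and 43.9 in WT libraries, a log2 fold change of -0.95 ± 0.08 (adjusted p = 3.68e-04 by limma). The groups did not overlap, and Dox and CTL cells had 30.5, 36.9 and 29.5 against 29.7, 26.7 and 27.2.

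Mrps2 (chromosome 2, 28468066 to 28471178), the counterpart of bacterial S2, had 32.2, 32.7 and 35.2 in TKO libraries, against 56.1, 60.0 and 54.3 in WT libraries. It fell by 0.75 on the log2 scale, with an SE of 0.07. Mrpl39, a large-subunit protein without a bacterial counterpart, had 27.4, 27.0 and 26.5 in TKO libraries, against 40.7, 40.9 and 41.3 in WT libraries. Its change was -0.58 ± 0.06, without overlap between groups.

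Mrps5, at the messenger RNA entry and decoding region, had 20.7, 20.1 and 20.3 in TKO libraries, against 31.4, 31.2 and 29.3 in WT libraries (-0.57 ± 0.06). Mrpl42, a protein without a bacterial counterpart, had 32.6, 32.2 and 30.01 in TKO libraries, against 47.7, 48.4 and 44.9 in WT libraries (-0.56 ± 0.07). Mrpl32, whose cleavage by the mitochondrial m-AAA protease is needed for ribosome assembly, had 22.6, 23.7 and 21.7 in TKO libraries, against 35.0, 32.4 and 32.5 in WT libraries (-0.53 ± 0.07). Each of these genes fell without overlap between groups.

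Mrpl41, another protein specific to the mitochondrial particle, had 15.6, 15.6 and 14.3 in TKO libraries, against 20.2, 22.7 and 20.2 in WT libraries (-0.44 ± 0.08). Mrpl46, also of the large subunit, had 10.6, 11.97 and 11.1 in TKO libraries, against 13.9, 14.3 and 14.2 in WT libraries (-0.31 ± 0.08). With that trend removed, Mrpl41 was at -0.77 and Mrpl46 at -0.60. Mrpl46 did not pass with library size as the only scaling (-0.20, adjusted p = 0.124 by limma), and it has a false discovery rate of 0.208 in the authors' deposited table. The adjusted p of the 8 lowest genes lay between 3.68e-04 and 0.0150 by limma. Mrpl46 overlaps Mrps11 on the opposite strand over 12.2% of its exonic bases, and Mrps11 was 0.47 ± 0.11 higher in TKO (adjusted p = 0.0125 by limma, and 0.305 at 0.12 with the trend removed). The strand setting of the authors' counting is not given in the sources used here, so the reads of such pairs may be shared.

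**Figure D3:**
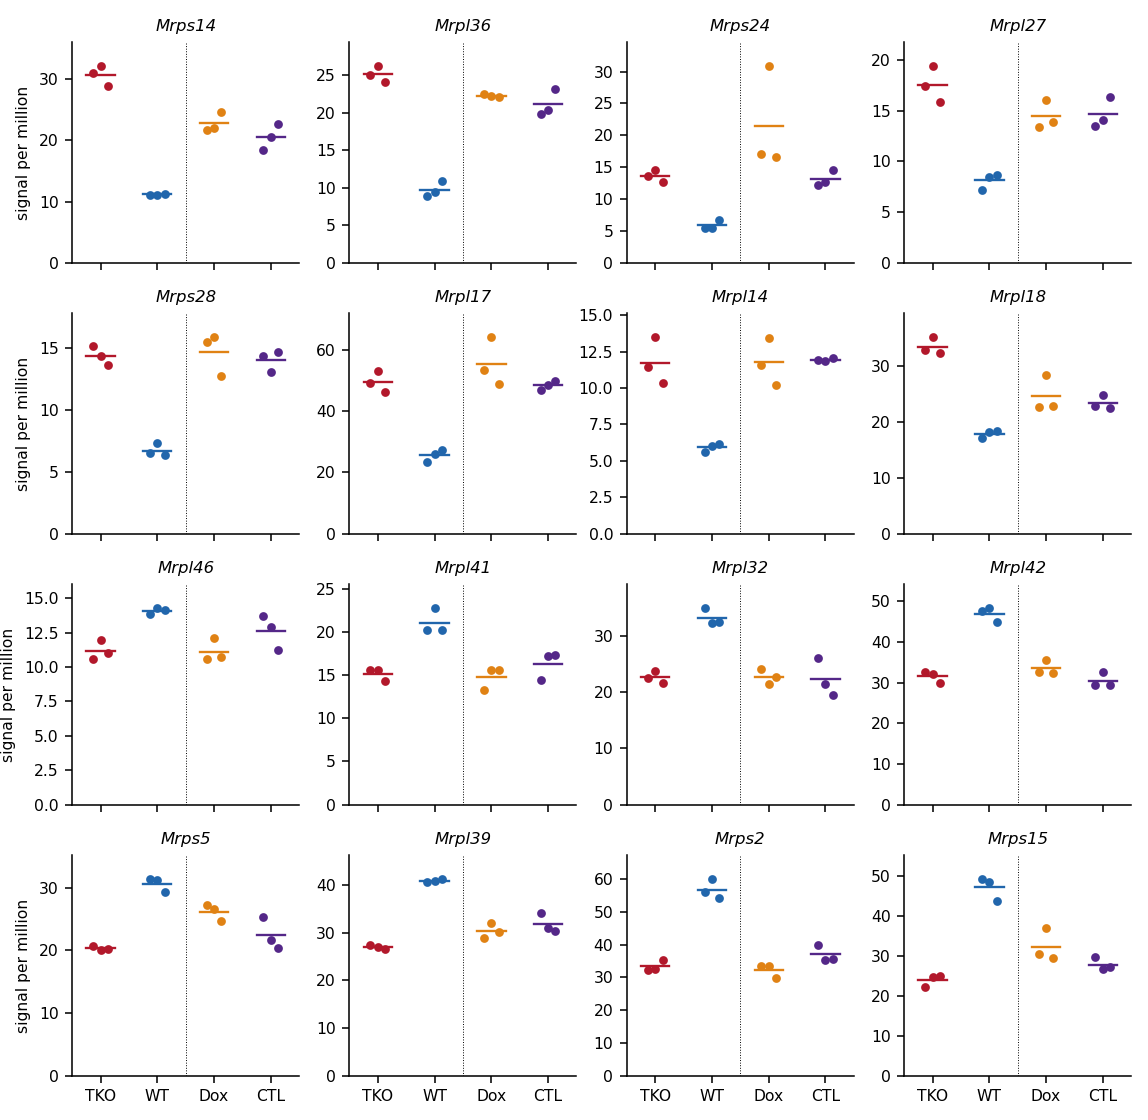
Deposited signal (axis from 0) of the 8 highest and the 8 lowest members past the threshold in TKO against WT, a point per library and a bar at the group mean, for TKO, WT, Dox and CTL cells, with a dotted line between the separately normalized tables. In each panel all TKO libraries lie on one side of all WT libraries, and Dox and CTL libraries lie on the same side of WT as TKO.

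For the 8 highest genes the median difference from WT on the log2 scale was 1.01 in TKO and 0.90 in CTL cells, and for the 8 lowest it was -0.56 in TKO and -0.49 in CTL cells. These 2 sets of differences share their WT libraries, cross separately normalized tables and were not tested against each other.

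The 3 Mrps18 paralogs, which descend from 1 bacterial protein and sit at different places in the mammalian particle, differed from each other. Mrps18a, which is placed in the large subunit despite its symbol, had 25.2, 29.7 and 24.3 in TKO libraries, against 14.8, 15.1 and 17.0 in WT libraries, and rose by 0.72 ± 0.10 (adjusted p = 0.00191 by limma). Mrps18c had 11.6, 13.2 and 11.6 in TKO libraries, against 8.01, 7.37 and 6.43 in WT libraries, and rose by 0.67 ± 0.10 (adjusted p = 0.00281 by limma). Mrps18b had 21.6, 20.7 and 23.0 in TKO libraries, against 24.8, 27.2 and 25.2 in WT libraries, a fall of -0.23 ± 0.07 (adjusted p = 0.0385 by limma). The Mrps18b value was -0.52 (adjusted p = 0.00518) once the trend was removed and -0.11 (adjusted p = 0.270) with library size only, both by limma, and the authors' deposited table gives it a false discovery rate of 0.333. With the trend removed Mrps18a was at 0.33 and still passed. Mrps18b shares 30.9% of its 50-base stretches with the annotated locus Gm13552, and 23.2% of the exonic bases of Mrps18c overlap another annotated gene on the same strand. In the Dox and CTL table, Mrps18a had 24.5, 27.4 and 26.3 against 25.6, 25.2 and 26.6, Mrps18b had 23.3, 24.2 and 25.1 against 27.8, 22.004 and 26.2, and Mrps18c had 8.56, 6.69 and 9.74 against 7.82, 9.16 and 9.20, all with overlapping groups.

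Mrpl12, the stalk protein of the large subunit that is also reported to bind mitochondrial RNA polymerase, had 34.7, 39.0 and 35.8 in TKO libraries, against 20.1, 25.9 and 28.9 in WT libraries. It rose by 0.54 ± 0.13 (adjusted p = 0.0158 by limma). Mrps12, a protein of the decoding centre, had 18.05, 18.1 and 14.7 in TKO libraries, against 8.24, 10.2 and 12.4 in WT libraries, a rise of 0.68 ± 0.15 (adjusted p = 0.0121 by limma). After removal of the length and GC trend neither passed, at 0.21 (adjusted p = 0.147) and 0.28 (adjusted p = 0.0993) by limma. Mrpl33, a short large-subunit protein, had 32.6, 33.8 and 32.9 in TKO libraries, against 21.2, 20.1 and 20.0 in WT libraries, and rose by 0.67 ± 0.06 (adjusted p = 5.07e-04 by limma), or 0.41 with the trend removed. Of its 50-base stretches, 30.3% also occur in another locus.

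Transcript length and base composition moved with the fold change in TKO against WT, in the members and in the transcriptome alike. The median transcript was 1328 bases for members and 3154 bases for genes tested, with a median GC content of 49.9% for both. Across the 76 members, Spearman's rho of the fold change was -0.24 with length and 0.27 with GC content, and across the genes tested it was -0.32 and 0.31, all as descriptions across genes that share the same 6 libraries. Among transcripts under 1000 bases, 16 of 23 members were higher, with a median of 0.67, while 49.3% of 708 genes were higher, with a median of 0.40. Between 1000 and 2000 bases, 17 of 28 members were higher, with a median of 0.39, while 39.2% of 2427 genes were higher, with a median of 0.21. At 2000 bases or more, 11 of 25 members were higher, with a median of 0.15, while 17.1% of 9500 genes were higher, with a median of -0.06. Within each length class the share of members called higher was thus above that of all genes, and the gap in median was smaller than without the classes.

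**Figure D4:**
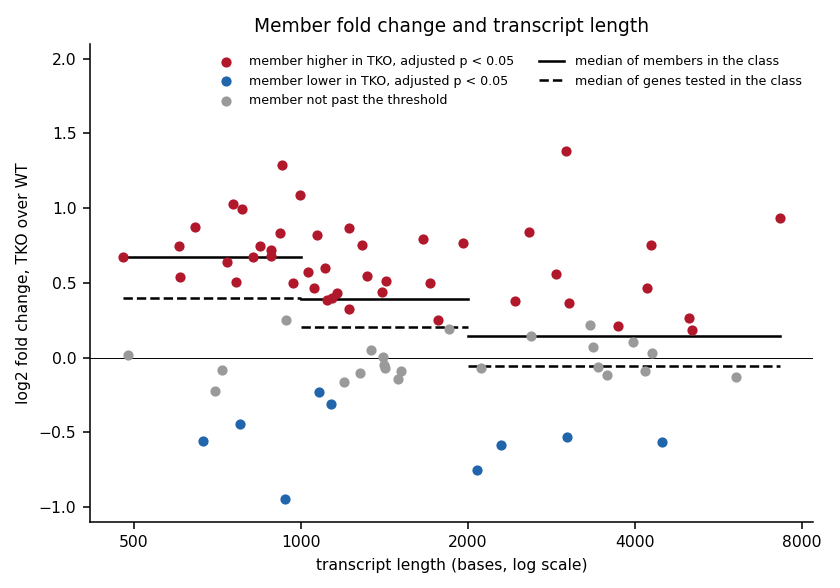
Log2 fold change of each member in TKO over WT against the length of its annotated transcript (bases, log axis), coloured by call, with the median of the members (solid) and of all genes tested (dashed) in 3 length classes. In each class the member median is above that of all genes, and both fall with length.

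When a smooth trend on length and GC content was removed from all genes, 36 members were higher (22.4% of genes) and 18 were lower (23.4%), with a median of 0.19. Of the 44 higher members 34 still passed, as did all 9 lower ones, and 9 further members passed as lower and 2 as higher. None passed in opposite directions. The ranking of the members stayed similar, with a Spearman's rho of 0.90 between both sets of fold changes. With library size as the only scaling, the median of all genes shifted by 0.11, and 47 members were higher (30.2% of genes) and 7 lower (15.1%). In the 35 members with at most 10% of their 50-base stretches in other genes and no exonic overlap, 20 were higher and 4 lower, with a median of 0.36, where 23.2% of all genes tested were higher and 22.7% lower.

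The 5 members with a seed match in the 3′ UTR, whose sites are printed above, had a median of 0.19 in TKO over WT, against 0.37 over all members. With the length and GC trend removed the order turned, with a median of 0.32 for these 5 genes against 0.19 over all members, and 3 of the 5 passed as higher. Mrps17, with its 2 sites, had 46.9, 44.0 and 43.8 in TKO libraries, against 39.2, 38.7 and 39.9 in WT libraries (0.19 ± 0.06, adjusted p = 0.0391 by limma). Mrpl19 had 23.3, 21.5 and 24.1 in TKO libraries, against 17.3, 19.8 and 19.7 in WT libraries (0.27 ± 0.08, adjusted p = 0.0385 by limma). Mrps17 and Mrpl19 rose without overlap between groups, and with the trend removed they were at 0.37 (adjusted p = 0.00347) and 0.41 (adjusted p = 0.00597) by limma. Mrps30, a member placed in the large subunit, had 21.4, 24.3 and 22.9 in TKO libraries, against 20.1, 18.9 and 19.7 in WT libraries (0.22 ± 0.07, adjusted p = 0.0515 by limma). Mrps30 passed with the trend removed (0.32, adjusted p = 0.0118 by limma), with library size only (adjusted p = 0.0221 by limma), by edgeR (adjusted p = 0.0369) and by DESeq2 (adjusted p = 0.0428). In the authors' deposited table Mrps17, Mrpl19 and Mrps30 did not pass, with false discovery rates of 0.449, 0.267 and 0.426. Mrpl48 had 19.9, 21.1 and 19.0 in TKO libraries, against 20.6, 19.2 and 18.7 in WT libraries (0.03 ± 0.07). Mrpl51 had 29.6, 31.6 and 28.4 in TKO libraries, against 31.7, 31.4 and 30.7 in WT libraries (-0.07 ± 0.07). Neither Mrpl48 nor Mrpl51 passed the test, and their groups overlapped. In Dox over CTL the same 5 genes had log2 fold changes of 0.13 ± 0.08 (Mrps17), -0.08 ± 0.09 (Mrpl19), 0.19 ± 0.09 (Mrps30), -0.04 ± 0.09 (Mrpl48) and -0.13 ± 0.08 (Mrpl51), with no adjusted p under 0.05 by limma.

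The promoters of the members were examined because ETS-family, NRF1 and YY1 factors are known regulators of nuclear genes for mitochondrial proteins. RefSeq promoters (GRCm38.p6, 250 bases before to 50 after the start) were found for 67 of the 76 members, and motifs were searched on both strands. The ETS letters CCGGAAG occurred in 35.8% of these members, against 20.2% of genes tested. The YY1 letters AAGATGGC occurred in 17.9% of members against 5.35% of genes. The NRF1 palindrome, spelled out by the capitals in the Mrpl39 promoter, occurred in 4.48% against 2.30%. The general letters GGGCGG and CCAAT were found in 50.8% and 38.8% of members, against 70.3% and 43.3% of genes. The promoters below belong to 2 genes that rose (Mrpl36, Mrps24) and 2 that fell (Mrpl42, Mrpl39), and the capitals mark the YY1 letters or their reverse complement in Mrpl36, Mrps24 and Mrpl42 and the NRF1 letters in Mrpl39.
Mrpl36 (chr13:73330759-73331058, plus strand): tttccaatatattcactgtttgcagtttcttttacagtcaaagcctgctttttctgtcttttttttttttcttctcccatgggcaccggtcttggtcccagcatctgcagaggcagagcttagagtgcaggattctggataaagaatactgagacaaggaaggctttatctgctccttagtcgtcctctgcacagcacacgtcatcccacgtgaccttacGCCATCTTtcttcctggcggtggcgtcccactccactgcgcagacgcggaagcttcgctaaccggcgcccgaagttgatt
Mrps24 (chr11:5707652-5707951, minus strand): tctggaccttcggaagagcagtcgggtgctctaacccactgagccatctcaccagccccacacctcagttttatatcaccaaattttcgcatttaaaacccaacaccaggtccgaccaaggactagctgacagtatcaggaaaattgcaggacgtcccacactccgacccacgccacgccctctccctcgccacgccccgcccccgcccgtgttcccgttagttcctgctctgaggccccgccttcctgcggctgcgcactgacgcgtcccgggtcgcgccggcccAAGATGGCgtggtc
Mrpl42 (chr10:95501900-95502199, minus strand): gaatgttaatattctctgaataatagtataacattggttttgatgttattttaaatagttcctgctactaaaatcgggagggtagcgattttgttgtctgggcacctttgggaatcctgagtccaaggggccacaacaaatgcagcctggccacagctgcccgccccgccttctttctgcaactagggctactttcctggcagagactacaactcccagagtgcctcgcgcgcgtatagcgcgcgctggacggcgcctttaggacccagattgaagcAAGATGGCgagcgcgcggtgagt
Mrpl39 (chr16:84735195-84735494, minus strand): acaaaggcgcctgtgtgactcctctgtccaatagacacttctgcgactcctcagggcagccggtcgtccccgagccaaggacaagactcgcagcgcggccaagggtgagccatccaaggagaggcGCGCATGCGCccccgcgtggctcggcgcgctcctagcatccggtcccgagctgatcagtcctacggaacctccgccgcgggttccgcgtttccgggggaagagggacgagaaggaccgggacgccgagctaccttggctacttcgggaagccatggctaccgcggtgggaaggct
Of the 24 members with the ETS letters 14 were higher and 1 was lower in TKO, with a median of 0.49, and of the 43 without them 23 were higher and 8 lower, with a median of 0.25. Of the 12 members with the YY1 letters 8 were higher and 2 lower, with a median of 0.36, and of the 55 without them 29 were higher and 7 lower, also with a median of 0.36. Of the 3 members with the NRF1 letters 1 was higher and 2 were lower. Over all genes tested 23.2% were higher and 22.7% lower. A match in these windows is a description of the letters and was not tested as a site.

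Of 3 genes of such factors, Gabpa and Yy1 were lower in TKO cells without removal of the trend. Gabpa, an ETS-family subunit of NRF2, changed by -0.84 ± 0.08 (adjusted p = 6.70e-04 by limma). Yy1 changed by -0.19 ± 0.06 (adjusted p = 0.0389 by limma), and by -0.08 (adjusted p = 0.396 by limma) with the trend removed. Nrf1 was at -0.03 ± 0.08 and did not pass (adjusted p = 0.789 by limma). These 3 genes were chosen after their values were seen. In the list of 12 regulators of mitochondrial biogenesis, 10 were lower and 1 was higher, against 22.7% and 23.2% of all genes tested. Their median was -0.57, opposite in sign to the members. With the trend on length and GC removed, 7 were lower and 1 higher, against 23.4% and 22.4% of genes. Nfe2l2, a stress-response activator, had 179, 164 and 159 in TKO libraries, against 298, 301 and 269 in WT libraries (-0.79 ± 0.08). Esrra, a nuclear receptor that drives oxidative genes, was the exception, with 21.6, 20.8 and 18.2 in TKO libraries, against 6.80, 8.12 and 9.15 in WT libraries (1.24 ± 0.12). Myc had 33.0, 44.7 and 40.3 in TKO libraries, against 86.1, 102 and 104 in WT libraries (-1.30 ± 0.13). All 3 of these genes passed, with adjusted p between 6.01e-04 and 6.37e-04 by limma. In Dox against CTL none of the 12 passed, with a median of 0.05. The smallest p values there were those of Ppargc1a (-0.46 ± 0.20, at a signal of 1.06, 1.79 and 1.01 in Dox libraries against 2.03, 2.66 and 1.70 in CTL libraries), Yy1 (0.12 ± 0.08) and Hcfc1 (0.12 ± 0.10).

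Most RNAs that the mitochondrial ribosome contains or translates went the other way in TKO cells from most messenger RNAs of its proteins. No protein was measured. Of the 12 mitochondrially encoded mRNAs and rRNAs tested, 11 were lower and none was higher in TKO, with a median of -1.47. Over all genes tested 22.7% were lower and 23.2% higher. mt-Nd1, a complex I subunit, had 2331, 2198 and 2188 in TKO libraries, against 8464, 8660 and 7623 in WT libraries. It changed by -1.88 ± 0.10, mt-Nd2 by -1.89 ± 0.11 and mt-Nd5 by -2.09 ± 0.13, with adjusted p between 1.89e-04 and 2.47e-04 by limma. The libraries were made from messenger RNA selected by its tail, so these levels depend on the polyadenylation of the mitochondrial transcripts, which was not measured.

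Among genes that assemble the particle or act beside it, more were higher than lower in TKO cells. The list counts here are without removal of the trend, where 23.2% of all genes tested were higher and 22.7% lower. Of the proteins of the particle without an Mrp symbol, 3 of 5 were higher and none lower. Dap3, the GTP-binding small-subunit protein, had 50.8, 55.7 and 51.4 in TKO libraries, against 30.7, 31.9 and 31.7 in WT libraries (0.73 ± 0.06). Chchd1 rose by 0.69 ± 0.08 and Gadd45gip1 by 0.35 ± 0.11, all with adjusted p of at most 0.0422 by limma. With the trend removed Chchd1 was at 0.43, and Gadd45gip1 did not pass (0.18, adjusted p = 0.129 by limma). Of 28 assembly and rRNA modification genes, 15 were higher and 1 was lower, with a median of 0.27, led by Rcc1l (1.19 ± 0.08), Gtpbp6 (1.21 ± 0.11) and the rRNA methyltransferase gene Mrm1 (0.77 ± 0.08). Of 20 mitochondrial aminoacyl-tRNA synthetase genes, which charge the tRNAs, 10 were higher and 1 was lower, with a median of 0.34. Lars2, for leucine, had 91.5, 57.7 and 81.3 in TKO libraries, against 20.6, 19.2 and 24.3 in WT libraries (1.78 ± 0.18), Cars2, for cysteine, rose by 0.78 ± 0.07, and Gatc, a subunit of the amidotransferase that makes glutaminyl-tRNA, fell by 0.73 on the log2 scale.

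Translation factor genes did not share that direction. Of 13 tested, 2 were higher and 3 lower, with a median of -0.06. For this list and the 3 that follow, the background was again 23.2% of all genes higher and 22.7% lower. The elongation factor gene Tsfm had 16.2, 17.8 and 16.6 in TKO libraries, against 7.50, 8.35 and 8.30 in WT libraries (0.98 ± 0.08), and Slirp, an RNA stability factor, rose by 0.94 ± 0.07. Mrrf, which recycles ribosomes, had 22.3, 20.1 and 21.4 in TKO libraries, against 33.1, 29.8 and 30.5 in WT libraries (-0.53 ± 0.07). Of 13 genes of mitochondrial transcription and DNA maintenance, 5 were higher and 2 lower. Tfb2m, the transcription initiation factor, changed by -0.85 ± 0.10, Polg, the DNA polymerase, by 0.57 ± 0.08 and the single-strand binding protein gene Ssbp1 by -0.56 ± 0.09 (-0.35 with the trend removed). Of 13 protease and chaperone genes 6 were higher and 2 lower, with rises of 0.60 ± 0.06 for Grpel1, 0.48 ± 0.07 for Clpp and 0.40 ± 0.07 for Spg7. With the trend removed neither Clpp (0.07, adjusted p = 0.522 by limma) nor Spg7 (0.24, adjusted p = 0.0671 by limma) passed. The abundant chaperone genes Hspa9 (-0.46 ± 0.10) and Hspd1 (-0.49 ± 0.13) were the 2 that fell, and the summed signal of the list was 1958, 1894.5 and 2181 in TKO libraries, against 2493, 2387 and 2241 in WT libraries. Of 17 citrate cycle genes 7 were higher and 2 lower, led by Sdhc (1.05 ± 0.06), Sdhd (1.18 ± 0.07) and Suclg1 (0.78 ± 0.07). Without removal of the trend, the adjusted p of the genes named here for translation, transcription, proteases and the citrate cycle was at most 0.00366 by limma, except for Hspa9 (0.00885) and Hspd1 (0.0210).

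Many members had the start of a gene on the other strand nearby. Starts here were the outer bounds of the gene models, which can differ from the RefSeq starts of the promoters above. A protein-coding gene started head to head within 1000 bases for 23 of 76 members (30.3%), against 12.6% of the protein-coding genes tested. Of 22 such pairs with a tested neighbour, both genes passed in 10, in the same direction in 7 and in opposite directions in 3. Of all genes tested, 45.8% passed in either direction, and the pairs were not compared with those of other genes. Mrpl49 was 0.25 ± 0.08 higher in TKO and its neighbour Fau, which encodes a cytosolic ribosomal protein, was 1.08 higher. Mrpl49 did not pass with the trend removed (0.12, adjusted p = 0.166 by limma). Mrpl32 fell as given above, while Psma2, a proteasome subunit gene that starts 75 bases away, was 0.65 higher (adjusted p = 5.78e-04 by limma). Mrpl41 with Pnpla7 and Mrpl30 with Mitd1 were the other opposite pairs. These pairs were chosen after their values were seen.

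In Dox against CTL no member passed the test in either direction, where 0% of the 12634 genes tested passed by limma. At an unadjusted p under 0.05, 4 members were higher (2.45% of genes) and 0 lower (3.47%). On the recovered reads, edgeR called no gene, and DESeq2 called 0 members and 99 genes (0.784%). The median log2 fold change was 0.07 over the members and 0.01 over all genes, 0.04 over Mrpl genes and 0.14 over Mrps genes. The fold change was above 0 for 55 of 76 members, against 52.8% of genes. All 3 Dox libraries were above all 3 CTL libraries for 18 members (6.5% of genes tested) and below for 2 (5.66%). The SD of the fold changes was 0.14 across members and 0.19 across genes, with a median SE of 0.11 for a member. In the authors' deposited table every member has a false discovery rate of 1, and 0.0596% of genes are called.

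The sum over the Mrps genes was 634, 695 and 646 in Dox libraries 1, 2 and 3, against 606, 597 and 621 in CTL libraries 1, 2 and 3, without overlap. The sum over the Mrpl genes was 1203, 1266 and 1196 in Dox libraries, against 1187, 1164 and 1167 in CTL libraries, also without overlap. Dox library 2 was the highest of the 6 in both sums. As a share of all signal in a library, the Mrpl genes did overlap. They held 0.124%, 0.129% and 0.122% in Dox libraries 1, 2 and 3, against 0.121%, 0.123% and 0.119% in CTL libraries 1, 2 and 3. The Mrps share stayed without overlap. Same-numbered Dox and CTL libraries deviated together from their group means, so the fit with replicate number as a block is given beside the calls it changes. With the block, no member passed either (0.562% of genes were higher and 1.54% lower), with a smallest adjusted p of 0.0807 for Mrpl57 by limma. For other members named below, the block gave adjusted p of 0.104 (Mrps24), 0.129 (Mrps26), 0.211 (Mrpl12), 0.222 (Mrpl44) and 0.279 (Mrps2) by limma. At an unadjusted p under 0.05 the block gave 7 members higher and 2 lower, for which the share of all genes is not given here.

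Of the 5 members with the smallest p among those above 0, Mrpl57, a large-subunit protein without a bacterial counterpart, had 21.0, 22.5 and 18.3 in Dox libraries, against 14.4, 13.9 and 16.2 in CTL libraries. Its groups did not overlap, at 0.45 ± 0.11 (adjusted p = 0.608 by limma). Mrps24 had 17.1, 30.9 and 16.6 in Dox libraries, against 12.2, 12.7 and 14.6 in CTL libraries, at 0.61 ± 0.24 (adjusted p = 0.820 by limma). Every Dox library was above every CTL library, and Dox library 2 was the highest by far.

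Mrps26, a small-subunit protein of the mitochondrial particle, had 24.9, 31.3 and 22.1 in Dox libraries, against 20.2, 20.5 and 19.7 in CTL libraries (0.35 ± 0.13, adjusted p = 0.825 by limma). Mrpl44, which has an RNase III-like fold, had 17.4, 18.1 and 18.2 in Dox libraries, against 13.7, 15.6 and 15.6 in CTL libraries (0.25 ± 0.10, adjusted p = 0.825 by limma). Mrpl12 had 41.4, 52.4 and 40.6 in Dox libraries, against 36.6, 35.7 and 38.0 in CTL libraries (0.27 ± 0.11, adjusted p = 0.841 by limma). In all 3 genes every Dox library was above every CTL library. With the block and the length and GC trend removed together, Mrps24 (0.61 ± 0.14, adjusted p = 0.0429 by limma) and Mrpl12 (0.26 ± 0.06, adjusted p = 0.0444 by limma) passed, where 3% of genes were called higher and 4.37% lower. With the block and without replicate 3, Mrpl57, Mrps24, Mrps26, Mrpl12 and Mrps34 passed (1.85% of genes higher), without replicate 1 Mrps24 alone passed (0.277% of genes higher), and without replicate 2 none did. Mrps12 had 20.5, 23.3 and 18.2 in Dox libraries, against 17.3, 19.2 and 20.2 in CTL libraries (0.12 ± 0.12), with overlapping groups.

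Of the 5 members with the smallest p among those below 0, Mrps2 had 33.5, 33.5 and 29.7 in Dox libraries, against 39.9, 35.4 and 35.7 in CTL libraries (-0.19 ± 0.09, adjusted p = 0.863 by limma). Mrpl40, of the large subunit, had 16.6, 16.8 and 16.5 in Dox libraries, against 22.6, 18.9 and 16.8 in CTL libraries (-0.20 ± 0.12). The Mrps2 groups did not overlap, whereas those of Mrpl40 touched, with CTL library 3 at the Dox level. Mrpl51 had 27.4, 29.9 and 28.6 in Dox libraries, against 29.99, 31.6 and 32.7 in CTL libraries, and Mrpl46 had 10.6, 12.1 and 10.7 in Dox libraries, against 13.7, 12.9 and 11.3 in CTL libraries (-0.17 ± 0.12). Mrps6, the counterpart of bacterial S6, had 17.6, 22.4 and 25.6 in Dox libraries, against 19.2, 26.5 and 34.5 in CTL libraries (-0.26 ± 0.23). With the block its SE was 0.09 (adjusted p = 0.203 by limma). The Mrps6 groups overlapped, each Dox library lay below the CTL library of its number, and 19.9% of its exonic bases overlap other genes on the same strand, Slc5a3 among them.

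Among the related lists no gene passed in Dox against CTL without the block. With the block, 2 of the 12 mitochondrially encoded RNAs were lower (1.54% of genes), and both are the rRNAs of the mitochondrial ribosome. mt-Rnr1, the small-subunit rRNA, had 76.7, 55.6 and 93.3 in Dox libraries, against 137, 107 and 157 in CTL libraries (-0.83 ± 0.22, adjusted p = 0.608, and 0.00364 with the block, by limma). mt-Rnr2, the large-subunit rRNA, had 179, 133 and 183 in Dox libraries, against 260, 243 and 284 in CTL libraries (-0.68 ± 0.14, adjusted p = 0.432, and 0.0105 with the block, by limma). For both rRNAs every Dox library was below every CTL library, and Dox library 2 was the lowest. mt-Nd1 changed by -0.33 ± 0.16 and did not pass in either fit.

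The remaining lists had medians near that of the members in Dox against CTL. For the proteins of the particle without an Mrp symbol the median was 0.07. Gadd45gip1 had 26.6, 29.5 and 20.9 in Dox libraries, against 19.3, 19.8 and 20.7 in CTL libraries (0.34 ± 0.14), and Dap3 (0.10 ± 0.08) and Ptcd3 (0.07 ± 0.11) followed. Assembly genes had a median of 0.05, with the smallest p for Malsu1, a partner of the large subunit (0.29 ± 0.15), Rpusd4 (0.17 ± 0.09) and Trmt61b (0.34 ± 0.18). The synthetase genes had a median of 0.04, with Tars2, for threonine (-0.25 ± 0.08), Nars2, for asparagine (0.31 ± 0.13), and Mars2, for methionine (0.28 ± 0.12). Translation factors had a median of 0.10, with Taco1 (0.23 ± 0.11), Lrpprc (-0.15 ± 0.09) and Mrrf (0.16 ± 0.10). Transcription and DNA maintenance genes had a median of 0.07, with Polg (0.20 ± 0.09), Tefm (0.23 ± 0.13) and Dguok (0.16 ± 0.10). Proteases and chaperones had a median of 0.07, with Trap1 (0.13 ± 0.09), Afg3l2 (0.08 ± 0.07) and Lonp1 (0.20 ± 0.19). Citrate cycle genes had a median of 0.04, with Cs (-0.15 ± 0.09), Fh1 (0.15 ± 0.09) and Dlst (0.11 ± 0.09). None of these named genes passed in either fit by limma, with an adjusted p of at least 0.710 without the block.

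Set side by side, the members differed in both the size and the sign of their fold changes between the comparisons. TKO over WT and Dox over CTL share no library, and in sign 40 members were above 0 in both, 14 above 0 in TKO only, 15 above 0 in Dox only and 7 below 0 in both. Pearson's r across the 76 members was 0.24 and Spearman's rho 0.18, as a description across genes. Of the 8 members that rose most in TKO, 6 were above 0 in Dox, with fold changes between -0.03 and 0.61. Of the 8 that fell most, 4 were above 0, with fold changes between -0.19 and 0.22. The smallest adjusted p of these 16 genes in Dox against CTL was 0.820 by limma.

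**Figure D5:**
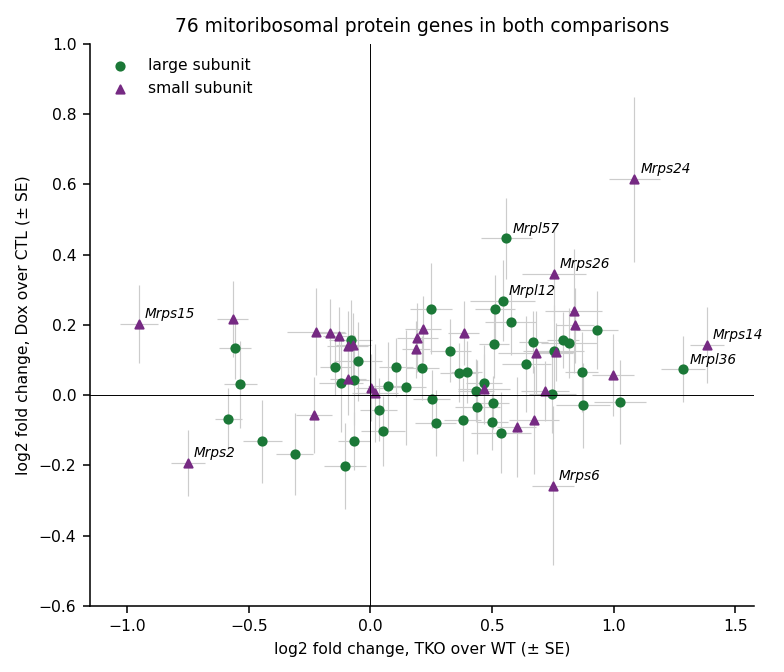
Log2 fold change in TKO over WT (horizontal) and in Dox over CTL (vertical) for the 76 members, with SE bars, circles for Mrpl and triangles for Mrps genes. The vertical range is narrower than the horizontal one, Mrps24 is the only gene beyond 0.5 in Dox, and Mrps14 and Mrps15 at the ends of the horizontal axis lie near 0.2 or below in Dox.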

How the data were processed

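Per the submitters' processing notes, TopHat2 2.0.12, featureCounts 1.4.6, edgeR 3.8.6 and StringTie 1.2.2 were used with GRCm38 (mm10), without stated roles. Libraries were made with a stranded mRNA kit and read as 75-base single reads, per the labels. The signal values deposited by the authors are reads scaled by 1 factor per library, and they were whole reads within 0.1 for 99.96% to 100% of the values of each library. The log2 fold changes, the likelihood ratio score and the p-values deposited by the authors were not used for tests. Since the files hold scaled values, count tests on the recovered reads were alternatives only. From the signal, log2(signal + 1) was tested with limma 3.58.1 (trend) over genes at 1 or above in 3 or more of 6 libraries, with Benjamini-Hochberg adjustment at 0.05, within each table, which lists genes above 0 in all its libraries. A fold change on this scale understates that of low genes. R 4.3.3, edgeR 4.0.16, DESeq2 1.42.0, Python 3.11.15, numpy 2.4.6, pandas 2.3.3 and matplotlib 3.10.9 were used, and the fit was tested on simulated data. Recovered depth, given in the report, limits counting error only. Gene models came from GENCODE vM21 (GRCm38), with 1 transcript per gene (protein-coding first, then basic, complete and longest). Same-numbered Dox and CTL libraries correlated at 0.863, 0.584 and 0.736 in their deviations from the group means, so the numbers pair them. The columns of Dox replicates 2 and 3 share a sequencing suffix. Members and lists were chosen with earlier results of these data known. The members named were the 8 highest and 8 lowest past the threshold in TKO against WT, the 5 smallest p per direction in Dox against CTL, the 3 highest per kilobase in WT, the Mrps18 paralogs, Mrpl12, Mrps12 and those with a seed match, and the 3 smallest p of each related list.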

Additional observations from a re-analysis of the deposited data

How the results depend on the processing

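In TKO against WT, 38 of the 44 higher and 7 of the 9 lower members passed in all 6 fits that left out 1 library, with counts of 38 to 44 higher and 7 to 9 lower. Removing the length and GC trend moved the count of lower members to 18 (17 with the replicate block as well, where 19.9% of genes were lower) and the member median to 0.19 in both fits. It moved the lower count to 9 for the Mrpl and 9 for the Mrps genes, and their medians to 0.21 and 0.13. The member median was 0.49 with library size as the only scaling (0.50 for Mrpl and 0.34 for Mrps genes) and 0.31 with a pseudocount of 5. Same-numbered TKO and WT libraries correlated at 0.449, -0.135 and -0.293, so the numbers do not pair them, and with the replicate block 40 members were higher and 8 lower (20.6% and 19.7% of genes), the 5 calls of Mrps17, Mrpl19, Mrpl35, Mrpl49 and Mrps18b being lost. With the block and the trend removed together, Mrps17, Mrpl19 and Mrps30 passed as higher (adjusted p of 0.0193, 0.0197 and 0.0372 by limma). With the trend removed, 7 members that did not pass turned sign, and 2 of them then passed as lower (Mrps21 and Mrps23), and with library size only 8 turned, of which 0 passed. Among the members described singly by the naming rule, Mrpl51 was 0.056 with library size only and 0.039 with the trend removed, with and without the block, and Mrpl48 ran between -0.0054 (without TKO replicate 2) and 0.072 over the fits without 1 library. In Dox against CTL the higher count was 2 with the block and the trend removed, and, in fits chosen after seeing the data, 1 with the block without replicate 1 and 5 without replicate 3. The causes were not tested. With 3 libraries per group, members of small change cannot be resolved.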
